A study of Homo sapiens with 3 samples.

Results

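The genes examined here encode AP-1 and related stress transcription factors. They are 10 genes chosen by symbol, FOS, FOSB, FOSL1, FOSL2, JUN, JUNB, JUND, ATF3, MAFF and MAFK, by a rule of names alone, and the set was proposed with earlier results of these data known. All 10 were found among 19970 protein-coding genes of the annotation. For each gene, every deposited peak over its span or within 20 kb of it was read in 3 CUT&Tag libraries of A2780, an established human ovarian carcinoma cell line. The BPP library profiled acetylated lysine 27 of histone H3 (H3K27ac) in cells treated with BPP, a peptide that competes for the site at which BIN2 is phosphorylated. The CTR library profiled the same mark in the control, and the labels do not say what those cells received (a TAT peptide is named for an RNA-seq experiment of the study). The IgG library was made from A2780 cells with a non-specific antibody, and its title gives no peptide. All 3 came from cells grown with 10% serum, and frozen cells were thawed for the assay.

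AP-1 is a dimer of basic leucine zipper proteins, in which a Jun protein pairs with itself, with a Fos protein or with a factor of the ATF group. Several of its genes are immediate-early genes, transcribed within minutes of growth factor, stress or cytokine signals without new protein synthesis. The small Maf proteins MAFF and MAFK lack a transactivation domain of their own and act with partners such as NRF2 and BACH1 at antioxidant response elements. H3K27ac marks active promoters and enhancers, and CUT&Tag maps it by directing a transposase to the antibody, so that DNA near the mark is cut and tagged.

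On chromosomes 1 to 22 and X there were 17841 BPP, 14836 CTR and 7701 IgG peaks, called separately for each library. With 1 library per group no difference between conditions has a replicate check, no p-value between them was computed, and read depth is unknown. The fold over background, −log10 p and −log10 q given for each peak are the authors' own, and they describe or rank a peak only inside its own list. A value such as "the top 5%" is the share of that list with an equal or higher −log10 q. Values of both H3K27ac lists are set side by side, and no change is read from how they differ. A gene absent from a list may have a peak just under the caller's threshold. As a check of the cell line, 10 ovarian carcinoma and epithelial markers were read. KRT8 and KRT18, keratins of simple epithelium, had a peak within 1 kb of a gene end in BPP and CTR, and MSLN in BPP. No such peak lay at PAX8, WT1, EPCAM, KRT7, MUC16, CDH1 or ESR1. Of 4 leukocyte markers CD68 had one in both, and of 4 fibroblast and mural markers ACTA2 had one in both. Of all coding genes 30.6% had one in BPP and 31.2% in CTR. The carcinoma and epithelial markers, with 3 of 10 in BPP and 2 in CTR, did not exceed these shares. The check therefore does not identify the cell type.

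Every one of the 10 genes had a BPP peak over its span or within 20 kb, 9 had a CTR peak, and MAFK alone had an IgG peak. Over all protein-coding genes the same rule called 59.8% in BPP, 57.1% in CTR and 24.6% in IgG. It called 9 of the 10 genes in both H3K27ac lists (50.2% of all genes), FOSL2 in BPP only (9.57%) and none in CTR only (6.92%). The windows held 33 BPP peaks, 22 CTR peaks and 1 IgG peak. The median gene of the 10 had 2.5 BPP peaks and 2 CTR peaks, against a median of 1 in each list over all coding genes. Within 1 kb of either end of the gene, a peak lay at 5 of the 10 genes in BPP, at 4 in CTR and at none in IgG. Of all coding genes 30.6%, 31.2% and 2.13% had one. The 4 genes with such a peak in both H3K27ac lists were FOS, FOSL1, JUN and JUND (23.6% of all coding genes had one in both), and the remaining BPP gene, without one in CTR, was MAFF (7.03% of all genes were in BPP only). No gene had one in CTR only (7.57%). With peaks of fold 5 or more the counts were 2 in BPP (FOS and JUND) and 2 in CTR (FOS and JUN), and 15.5% and 17.6% of all genes had one. With the 5000 strongest peaks of each list they were 2 in BPP (FOS and JUND) and 2 in CTR (FOS and FOSL1), beside 14.6% and 16.1% of all genes. With windows of 2 kb the counts were 8 in BPP, 4 in CTR and none in IgG (35.1%, 34.3% and 3.23% of all genes), since FOSB, FOSL2 and ATF3 have a BPP peak between these distances. Around annotated starts, known for 8 of the genes, 1 kb held a peak at 4 in BPP, 3 in CTR and none in IgG (32.3%, 33.9% and 1.61%). The counts are small, and no test over genes was made of their distance from the background shares. Outside MAFK the nearest IgG peak lay between 39.8 kb (JUNB) and 448 kb (FOSL1) away.

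**Figure D1:**
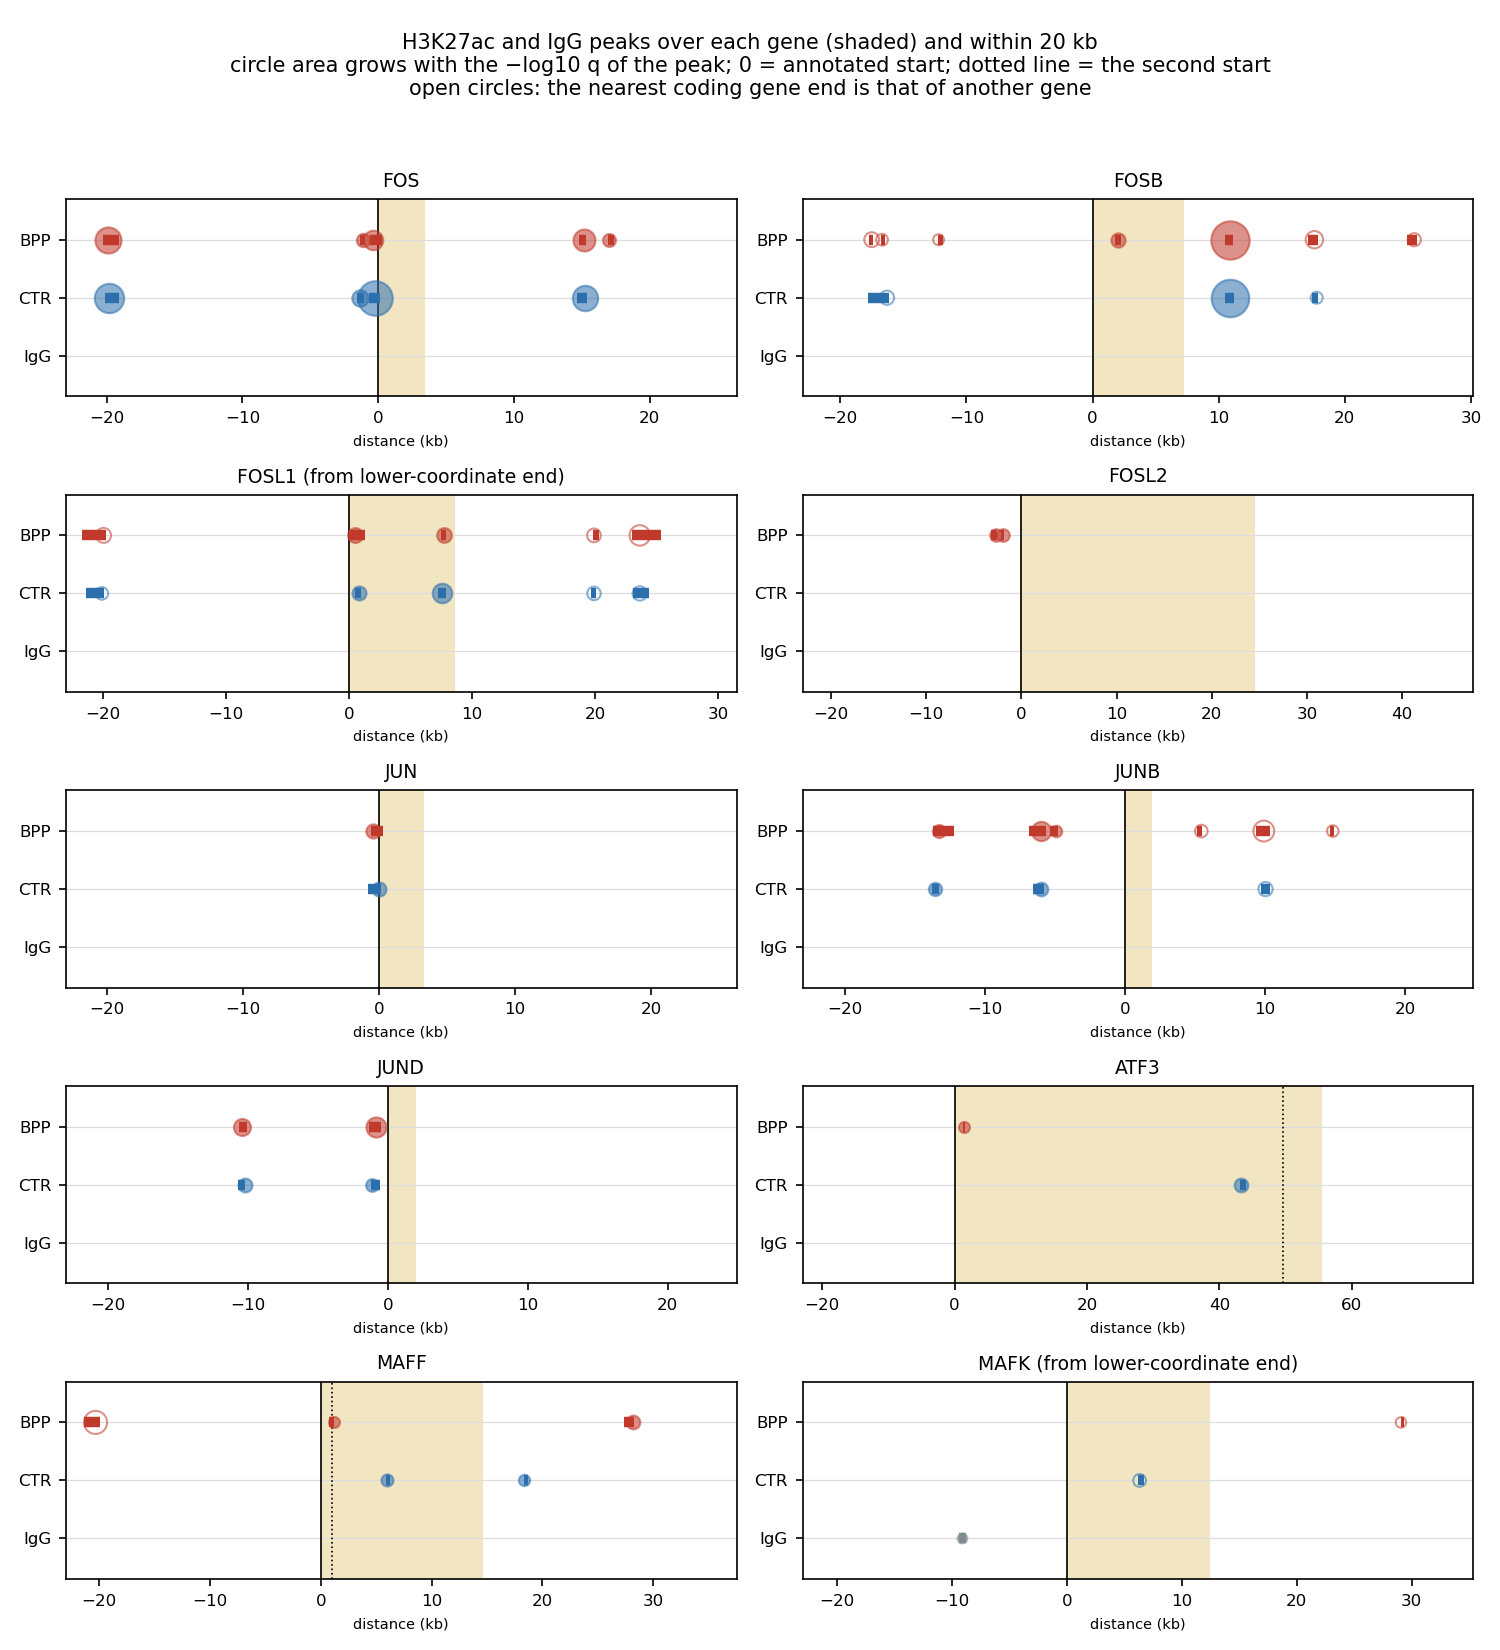
Peaks of the BPP, CTR and IgG lists over each of the 10 genes and 20 kb either side, by distance in kb from the annotated start in the direction of transcription (FOSL1 and MAFK from the lower-coordinate end). Bars are peaks, circles are summits with area growing with −log10 q, filled where the nearest coding gene end is that of the gene named and open where it is not. FOS and JUN have a peak over the start in both H3K27ac lists, and the large circles beyond FOSB lie over a transfer RNA gene.

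FOS, the founding Fos protein and a standard immediate-early gene, lies on chromosome 14, 75278828 to 75282230, on the plus strand, with no other coding gene within 20 kb. Its start was under a peak in both H3K27ac lists. The BPP peak (chromosome 14, 75278242 to 75279087) ran from −586 to 259 bp around the start (fold 5.34, −log10 q 19.1), in the top 9.18% of its list. The CTR peak (chromosome 14, 75278172 to 75278971) ran from −656 to 143 bp (fold 9.22, −log10 q 66.2), in the top 1.29%. Of the 8 genes with an annotated start, only FOS and JUN had a peak over one in both lists, and MAFF in BPP. The FOS peak was the strongest of these in each list, ranked 1637 in BPP and 191 in CTR. In BPP the JUND peak that stopped 483 bp before its start had a higher −log10 q (20.5). Both FOS peaks covered the whole promoter stretch of 300 bases, which runs from 250 before to 50 after the start. It is shown, from RefSeq on GRCh38.p14 (chr14:75278578-75278877, plus strand), because both lists mark all of it, with the match to TATAAA in capitals:

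FOS: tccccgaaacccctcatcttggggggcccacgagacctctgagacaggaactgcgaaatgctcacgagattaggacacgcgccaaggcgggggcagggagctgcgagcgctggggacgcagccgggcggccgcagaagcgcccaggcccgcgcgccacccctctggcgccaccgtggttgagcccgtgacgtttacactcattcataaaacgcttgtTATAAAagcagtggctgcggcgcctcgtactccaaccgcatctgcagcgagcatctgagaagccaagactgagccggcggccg

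A smaller peak stood just upstream of it in both lists, 1001 bp before the start in BPP (fold 3.52, −log10 q 7.30) and 1078 bp before it in CTR (fold 3.98, −log10 q 12.6). FOS also had a peak far out on each side in both lists. The one 19.1 kb upstream reached fold 6.45 with −log10 q 36.5 in BPP, against 7.47 with 46.9 in CTR, which is the top 2.55% and the top 2.08% of these lists. The one beyond the gene, 11.4 kb from its end in BPP and 11.2 kb in CTR, had folds of 6.14 and 6.63 and ranked in the top 5.29% and 3.43%. One more peak, 13.5 kb beyond the gene over the long non-coding RNA gene LINC01220, was in BPP only (fold 3.48, −log10 q 6.77). All 9 of these peaks lay nearer to FOS than to the end of any other coding gene. By number of peaks, 5 in BPP and 4 in CTR, FOS was matched or passed by 4.78% and 4.88% of coding genes.

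FOSB, a Fos protein of growth-factor and neuronal responses, lies on chromosome 19, 45467996 to 45475179, on the plus strand between ERCC1 and RTN2. It had 7 BPP peaks and 3 CTR peaks, none of them within 1 kb of either end of the gene. The peak inside the gene, 1.76 kb after the start, was in BPP only (chromosome 19, 45469758 to 45470234; fold 3.64, −log10 q 8.86). The window held the strongest peak of all 10 genes in both lists, 3.34 kb beyond the FOSB end. In BPP it reached fold 11.3 and −log10 q 81.9 (chromosome 19, 45478518 to 45479147), and in CTR fold 11.8 and −log10 q 78.5 (chromosome 19, 45478517 to 45479181), with summits 1 bp apart. That peak covers TRU-TCA1-1 (chromosome 19, 45478601 to 45478687), a gene of 87 bp for the transfer RNA that carries selenocysteine into selenoproteins. Of 443 transfer RNA genes, 36 had a BPP peak, 33 a CTR peak and 2 an IgG peak. Among the 200 peaks of highest −log10 q in each list it is the only one over a transfer RNA gene in BPP and likewise in CTR. FOSB is the nearest coding gene, but the peak is not read as a peak of FOSB. Of the other FOSB peaks, 5 in BPP and both in CTR were nearest to ERCC1 or RTN2, and the ERCC1 start was under a peak in both lists.

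FOSL1, which encodes FRA-1, lies on chromosome 11, 65892049 to 65900545, in a dense stretch with 6 other coding genes within 20 kb. No start was given for it in the promoter table used, so its ends are named by coordinate. It had 5 peaks in BPP and 5 in CTR, and each overlapped a peak of the other list. Near the lower-coordinate end BPP had a peak at chromosome 11, 65892045 to 65893349 (fold 2.81, −log10 q 9.87) and CTR at 65892512 to 65893052 (fold 2.96, −log10 q 8.43). Near the higher-coordinate end, 582 bp inside it in both lists, BPP reached fold 3.12 with −log10 q 9.68, and CTR fold 4.24 with −log10 q 19.1. Only 4 of the 10 FOSL1 peaks were nearest to FOSL1, and the rest lay nearer to EFEMP2 or C11orf68. The rest included the strongest BPP peak of the window, over C11orf68 and 14.5 kb beyond the higher-coordinate end (fold 3.39, −log10 q 21.1). The CTR peak that overlapped it had fold 2.87 and −log10 q 8.90.

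FOSL2, which encodes FRA-2, lies on chromosome 2, 28392858 to 28417317, on the plus strand with no other coding gene within 20 kb. It was the gene of the 10 with no CTR peak in its window: the nearest CTR peak was 167 kb away and the nearest IgG peak 59.2 kb. BPP had a pair of peaks upstream of the start, over the antisense gene FOSL2-AS1. One was 1.81 kb upstream (chromosome 2, 28390698 to 28391045; fold 3.40, −log10 q 6.30) and the other 2.56 kb (chromosome 2, 28389691 to 28390296; fold 3.50, −log10 q 6.18). Both ranked in the lower part of their list, in the top 59.2% and 60.7%. The FOSL2 promoter is shown (chr2:28392608-28392907, plus strand) because it is the only one of 10 promoters of these genes with the AP-1 site TGANTCA, in capitals, although no peak of any list touched it:

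FOSL2: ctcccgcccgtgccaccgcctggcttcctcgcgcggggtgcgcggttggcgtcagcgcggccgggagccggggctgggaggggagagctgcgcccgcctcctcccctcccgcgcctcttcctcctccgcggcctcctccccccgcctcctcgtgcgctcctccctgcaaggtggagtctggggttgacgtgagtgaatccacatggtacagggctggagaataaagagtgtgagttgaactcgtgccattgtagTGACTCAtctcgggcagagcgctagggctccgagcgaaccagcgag

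JUN, the founding Jun protein, which pairs with itself or with a Fos protein, lies on chromosome 1, 58780791 to 58784047, on the minus strand with no other coding gene within 20 kb. It had 1 peak in each H3K27ac list, over its start, and nothing else in the window. In BPP it spanned chromosome 1, 58783762 to 58784610 (fold 4.95, −log10 q 8.74), and in CTR 58783901 to 58784850 (fold 5.12, −log10 q 8.41). These stood in the top 36.3% and 39.7% of their lists, so the promoter of JUN was marked in both lists by a peak of middling rank. The BPP summit stood before the start, at −416 bp, and the CTR summit just inside the gene, at 7 bp. Both peaks covered all 300 promoter bases of JUN. JUND, the member of the family that many cells express without stimulation, lies on chromosome 19, 18279694 to 18281622, on the minus strand. Its nearest peak stood before the start and did not reach it, 483 bp away in BPP (chromosome 19, 18282105 to 18282942) and 527 bp away in CTR (chromosome 19, 18282149 to 18282853). By −log10 q this was the top 7.91% in BPP (fold 5.08, −log10 q 20.5) and the top 57.8% in CTR (fold 3.40, −log10 q 6.46). The peak also covers the microRNA gene MIR3188. A further JUND peak 10.0 kb upstream in BPP (fold 4.03, −log10 q 13.9) and 10.2 kb upstream in CTR (fold 3.59, −log10 q 8.18) was likewise in both lists. Both promoters hold a match to TGACNTCA, the 8-base site bound by Jun with ATF partners, and are shown from RefSeq (JUN, chr1:58783998-58784297; JUND, chr19:18281573-18281872; both minus strand, 5′ to 3′ along the gene). Capitals mark TGACNTCA and, in JUND, TGACNNNGC, the core of an antioxidant response element, whose later match there lies on the other strand:

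JUN: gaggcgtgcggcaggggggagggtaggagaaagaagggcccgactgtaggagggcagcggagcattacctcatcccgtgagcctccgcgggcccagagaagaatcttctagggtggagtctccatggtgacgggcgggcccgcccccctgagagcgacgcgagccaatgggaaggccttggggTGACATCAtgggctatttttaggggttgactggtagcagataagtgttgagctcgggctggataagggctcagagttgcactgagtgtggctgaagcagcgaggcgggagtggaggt

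JUND: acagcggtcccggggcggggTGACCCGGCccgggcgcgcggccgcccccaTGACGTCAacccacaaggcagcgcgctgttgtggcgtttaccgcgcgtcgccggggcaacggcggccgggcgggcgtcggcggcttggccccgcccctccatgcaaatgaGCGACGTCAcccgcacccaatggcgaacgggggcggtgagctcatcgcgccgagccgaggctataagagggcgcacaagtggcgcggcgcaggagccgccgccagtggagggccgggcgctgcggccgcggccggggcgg

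JUNB, an immediate-early Jun protein that can oppose JUN, lies on chromosome 19, 12791486 to 12793315, on the plus strand. Its window held 6 BPP peaks covering 4.84 kb and 3 CTR peaks covering 1.92 kb, but none lay within 1 kb of either gene end. The nearest was 3.33 kb beyond the gene in BPP, and in CTR the nearest was 5.81 kb upstream. The strongest, at the start of PRDX2, a peroxiredoxin gene, reached fold 5.26 with −log10 q 22 in BPP, and 4.02 with 8.62 in CTR. The peak 5.67 kb upstream in BPP (chromosome 19, 12784645 to 12785819; fold 3.51, −log10 q 18.7) and 5.81 kb upstream in CTR (chromosome 19, 12784915 to 12785673; fold 2.87, −log10 q 7.77) had the same summit base in both lists and lies inside HOOK2. JUNB had the greatest BPP length under peaks of the 10 genes, and 0.856% of coding genes had as much. The genes most like it, by the summed absolute difference in covered length over the 3 libraries, were HOOK2 and PRDX2, both with a difference of 0 bp, and CIC with 144 bp. HOOK2 and PRDX2 are its neighbours, and their windows hold the same peaks.

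ATF3, a stress-induced factor that pairs with Jun proteins, lies on chromosome 1, 212565407 to 212620777, on the plus strand, and the table gives it a pair of starts. It had 1 peak in each H3K27ac list, at different places, and neither lay over a start. The BPP peak (chromosome 1, 212566720 to 212567017; fold 4.43, −log10 q 4.09) was 1.31 kb after the first start and ranked low, in the top 90.0% of its list. The CTR peak (chromosome 1, 212608514 to 212609431; fold 5.61, −log10 q 8) was inside the gene, 43.1 kb after that start and upstream of the second, at −5587 bp from it, in the top 42.6%. ATF3 is thus counted in both lists within the window without any peak in common.

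MAFF, a small Maf protein gene induced by stress, lies on chromosome 22, 38201994 to 38216511, on the plus strand. It had 3 BPP peaks and 2 CTR peaks in its window. A BPP peak covered the second of its annotated starts and lay 780 bp after the first (chromosome 22, 38202774 to 38203188; fold 3.13, −log10 q 4.04, top 90.6%). CTR had no peak there, and its peaks stood 5.84 kb after the first start (chromosome 22, 38207833 to 38208203; fold 3.48, −log10 q 5.44) and 3.81 kb beyond the gene (fold 2.80, −log10 q 4.36). The strongest BPP peak of the window belongs by position to PLA2G6, whose start it covers (chromosome 22, 38180617 to 38182066; fold 4.74, −log10 q 27.7). It reached to 19928 bp from MAFF, and the overlapping CTR peak (fold 5.72, −log10 q 37.3) ended 20010 bp from it, just outside the window. Nearest to the 20 kb limit on the inside were also the FOSL1 peaks at 19.7 kb in BPP and 19.9 kb in CTR. Next outside it came a JUND peak at 22.9 kb in both lists, with −log10 q of 11.2 in BPP and 15.7 in CTR. The promoter of the second MAFF start is shown (chr22:38202770-38203069, plus strand) because 296 of its 300 bases were under that BPP peak. It holds none of the motifs that capitals mark in the other promoters, so all of it is in lower case:

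MAFF: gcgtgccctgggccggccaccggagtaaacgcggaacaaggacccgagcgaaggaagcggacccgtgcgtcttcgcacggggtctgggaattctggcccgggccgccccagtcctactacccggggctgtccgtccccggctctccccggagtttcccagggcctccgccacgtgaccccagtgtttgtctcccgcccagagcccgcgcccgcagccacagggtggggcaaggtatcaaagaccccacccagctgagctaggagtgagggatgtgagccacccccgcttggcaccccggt

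MAFK, the other small Maf gene, lies on chromosome 7, 1530702 to 1543043, and had 1 peak in each of the 3 lists, no 2 of which overlapped. The BPP peak was 16.7 kb beyond the higher-coordinate end (chromosome 7, 1559758 to 1560056; fold 2.77, −log10 q 3.32) and in the top 97.5% of its list, close to the weakest. The CTR peak was inside the gene (chromosome 7, 1536853 to 1537374; fold 2.82, −log10 q 6.42), and both it and the BPP peak lay nearer to an end of TMEM184A than of MAFK. The IgG peak (chromosome 7, 1521326 to 1521934; fold 4.17, −log10 q 2.51) lay 8.77 kb beyond the lower-coordinate end and overlapped no H3K27ac peak.

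**Figure D2:**
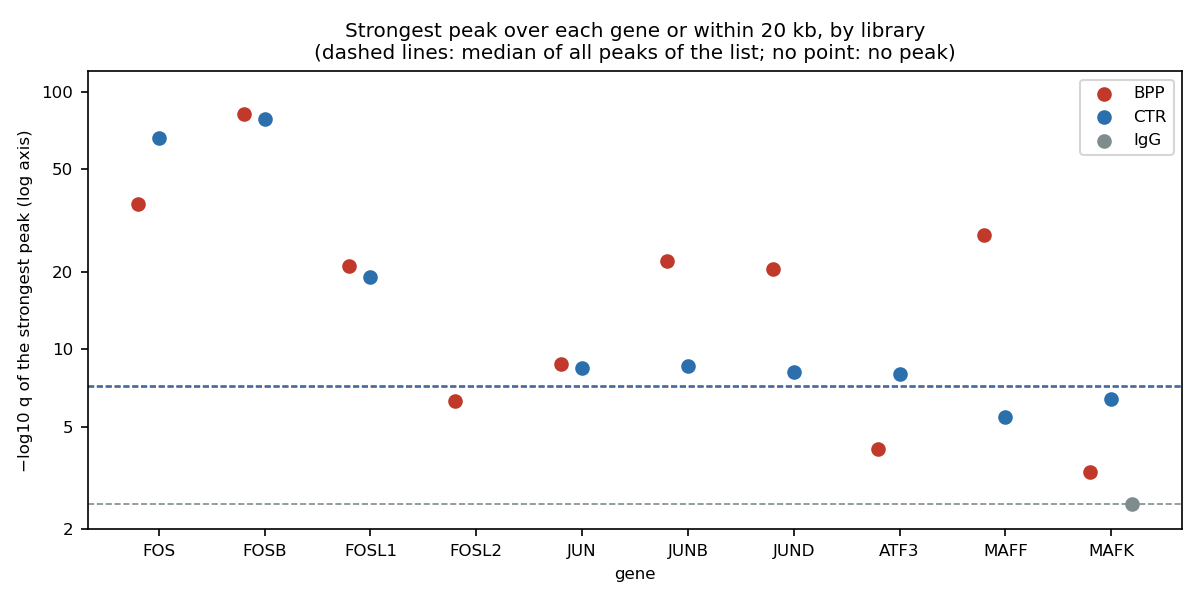
The −log10 q (log axis) of the strongest peak over each gene or within 20 kb for each list, with the median of all peaks of each list as a dashed line (7.11, 7.18 and 2.51). The strongest peak covers a transfer RNA gene at FOSB, and another coding gene's start at JUNB in both lists and at MAFF in BPP. At FOSL1 the BPP point is a peak over C11orf68, 14.5 kb beyond FOSL1, while the CTR point is a peak inside FOSL1. FOSL2 has no CTR point.

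Peaks found in both H3K27ac lists were counted by overlap. Of 33 BPP peaks in the windows, 20 were shared with CTR from 1 bp of overlap (60.6%, 95% Wilson interval 43.7 to 75.3), and 18 of 22 CTR peaks with BPP (81.8%, 61.5 to 92.7). Over the whole lists these shares were 50.04% and 59.65%. The intervals cover counting error only and treat peaks as independent. At the 7 Fos and Jun genes 19 of 28 BPP peaks and 18 of 18 CTR peaks were shared. At ATF3, MAFF and MAFK 1 of 5 BPP peaks was, the one over PLA2G6, and 0 of 4 CTR peaks. This split by family was made after the peaks were seen and was not tested. The 13 BPP peaks without a CTR counterpart reached at most a −log10 q of 8.86 (FOSB, inside the gene), and their median was 6.15, against 14.2 for the 20 that were shared. The 4 CTR peaks without a BPP counterpart reached at most 8 (ATF3), with a median of 5.93 against 8.52. Of the shared peaks, 4 had summits within 10 bp of each other, which is 22.2% of the 18 shared CTR peaks, against 13.9% of shared CTR peaks over the genome. They were the transfer RNA peak near FOSB, peaks of the FOSL1 window nearest to C11orf68, and the peak inside HOOK2 in the JUNB window. None of them lay within 1 kb of an end of the 10 genes, so the share is not read as a trait of these genes.

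**Figure D3:**
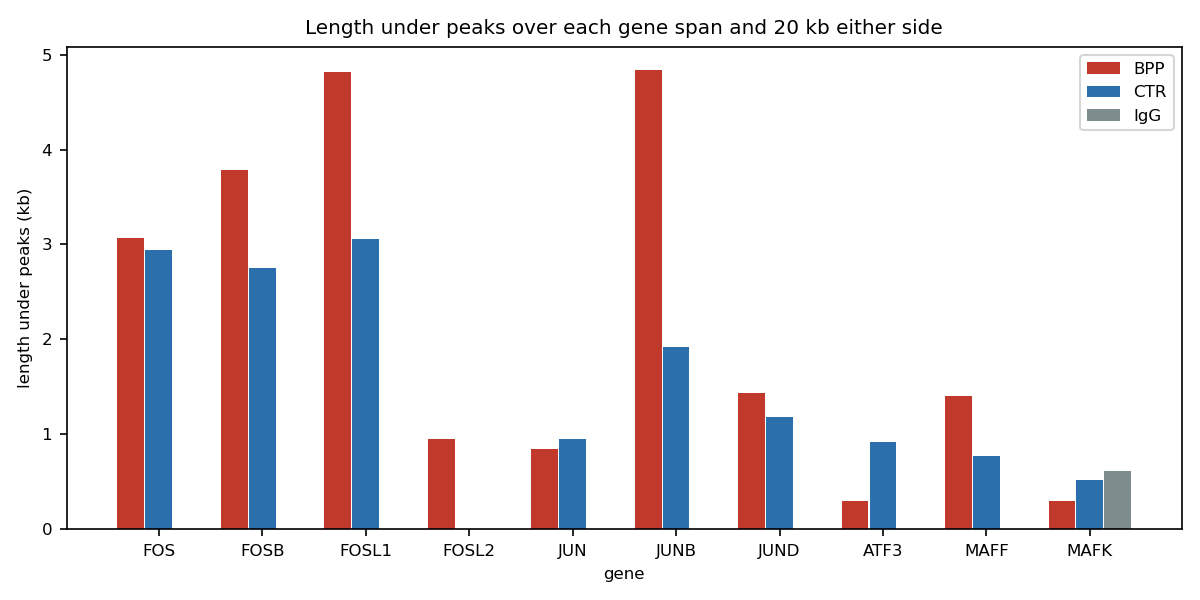
Length in kb under the peaks of the BPP, CTR and IgG lists over each gene span and 20 kb either side. The bars are tallest at JUNB and FOSL1 in BPP (4.84 and 4.81 kb), windows that hold 4 and 6 other coding genes, and the shortest H3K27ac lengths are at ATF3 and MAFK in BPP (0.298 and 0.299 kb) and FOSL2 in CTR (none).

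By length under peaks the genes fell into a wide range. BPP peaks covered from 0.298 kb at ATF3 to 4.84 kb at JUNB, with a median of 1.42 kb against 0.452 kb over all coding genes. CTR peaks covered from 0 at FOSL2 to 3.06 kb at FOSL1, with a median of 1.06 kb against 0.391 kb. The number of peaks was higher in BPP than in CTR at 5 genes (FOS, FOSB, FOSL2, JUNB and MAFF) and equal at the other 5, with none higher in CTR. Of all coding genes, 29.3% had more peaks in BPP, 15.3% more in CTR and 55.4% equal numbers, and the BPP list is also the longer one. With the CTR peak that ends 20010 bp from MAFF counted, MAFF had 3 peaks in each list, which leaves 4 genes with more in BPP and 6 with equal numbers (an alternative chosen after seeing the data). Neighbours added to these sums: a gene of the set had the nearest coding gene end for 20 of 33 peaks in BPP and for 15 of 22 in CTR. That measure uses only the ends of gene spans. Of those peaks, 4 in BPP and 3 in CTR also lay within the span of another coding gene: 3 and 2 of the JUNB peaks in HOOK2, and 1 MAFF peak per list in TMEM184B. The JUNB peak 12.2 kb upstream in BPP covers a start of HOOK2. By −log10 q the medians of the peaks in the windows were 8.74 in BPP and 8.29 in CTR, above the 7.11 and 7.18 of the whole lists. In the top 10% of their list stood 9 of the 33 and 5 of the 22. The 9 in BPP included the transfer RNA peak near FOSB, the peaks over C11orf68, PRDX2 and PLA2G6, and a peak inside HOOK2. The others lay in the FOS and JUND windows. The 5 in CTR included the transfer RNA peak, and the others lay in the FOS and FOSL1 windows. By fold the medians of all peaks in the windows were 3.48 in BPP and 3.65 in CTR, below the 4.36 and 4.64 of the whole lists.

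Promoter sequence was available for 8 of the 10 genes, in 10 promoters of 300 bases, since ATF3 and MAFF have a pair each. Motifs were read on both strands and set against 34961 promoters of the same length. The AP-1 site TGANTCA was in 1 of the 10 (FOSL2, bases 5 to 11 after the start), against 7.68% of all promoters. TGACNTCA, added after the sequences were seen, was in 4 of the 10 against 7.73%, which is not read as an excess. It stood at JUN, JUND and the first starts of ATF3 and MAFF. JUN and ATF3 carry it as TGACATCA, from −67 to −60 in JUN and from −123 to −116 in ATF3. JUND and MAFF carry it as TGACGTCA, the cyclic AMP response element and 1 form of TGACNTCA, which was in 1.85% of all promoters. TGACNNNGC was in 2 of the 10 (JUND and MAFF) against 13.4%, and TATAAA in 4 of the 10 (FOS, FOSB, JUNB and the second start of ATF3) against 11.5%. In FOS, FOSB and JUNB it lay about where a TATA box stands, from −33 to −28, from −30 to −25 and from −31 to −26. The CArG box, the site of serum response factor, was in 0 of these stretches against 1.30%. CCAAT, also added after the sequences were seen, was in 5 of the 10 against 34.6%. Only the promoters of FOS and JUN were under peaks in both lists, and 1 of MAFF in BPP, so motif content and peak calls are not compared.

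Genes that work with AP-1 were read by the same rule, a peak within 1 kb of a gene end. Windows of this kind can reach a neighbour, whose peak then counts for both. Of all coding genes 30.6% had such a gene-end peak in BPP, 31.2% in CTR and 2.13% in IgG. In both H3K27ac lists it was 23.6%, in BPP only 7.03% and in CTR only 7.57%. The lists are small, and no test was made of their distance from these shares. Among 26 related basic leucine zipper factors 15 had one in BPP, 12 in CTR and 1 in IgG, 10 of them in both H3K27ac lists, 5 in BPP only and 2 in CTR only. ATF7, a close relative of ATF2, led them with folds of 11 in BPP and 9.01 in CTR. ATF2, a Jun partner, had 8.27 and 7.16, and NFE2L2, which encodes NRF2, had 7.04 and 6.41. ATF5 had 4.87 in BPP and 4.03 in CTR, and XBP1, a factor of the unfolded protein response, 4.62 and 5.98. In BPP only were BATF2 (fold 6.89), DDIT3, which encodes CHOP (3.38), CEBPB (3.13), ATF6 (4.98) and BATF (4.89). In CTR only were the cyclic AMP response factors CREM (5.00) and CREB1 (5.58). MAF, MAFA and the small Maf gene MAFG had none in either list.

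Among 30 immediate-early genes 11 had a gene-end peak in BPP and 11 in CTR, with 8 in both and 16 in neither. Of all coding genes 30.6% had one in BPP, 31.2% in CTR and 23.6% in both. KLF6, a zinc finger factor, had the highest −log10 q, 30.8 in BPP and 39.8 in CTR, and EGR1 had 19.5 and 17.3. PPP1R15A, a stress-induced phosphatase subunit, had 11.4 in BPP and 8.05 in CTR, and IER5 had 6.27 and 12.1. In BPP only were DUSP2 (6.56), NR4A3 (5.67) and IER2 (4.55), and in CTR only ZFP36L1 (21.7), BTG2 (8.60) and CSRNP1 (7.17). EGR2, EGR3, EGR4, KLF2, KLF4, CCN1 and CCN2 were among those with none.

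Among 20 upstream regulators 9 had a gene-end peak in BPP and 10 in CTR, with 7 in both (30.6%, 31.2% and 23.6% of all coding genes). The p38 kinase gene MAPK14 had a −log10 q of 24.0 in BPP and 13.8 in CTR, and MRTFA, a cofactor of serum response factor, 14.0 and 6.06. KEAP1, the inhibitor of NRF2, had 10.2 in BPP and 10.8 in CTR, and FBXW7, a ubiquitin ligase subunit that targets JUN, 6.03 and 13.5. ELK4 (15.0) and SRF (4.90) were in BPP only, and the JNK1 gene MAPK8 (7.38), COP1 (5.60) and MAP3K1 (4.26) in CTR only. Among 22 known targets of AP-1, NRF2 or stress 4 had a gene-end peak in BPP and 4 in CTR. NQO1, a quinone reductase and NRF2 target, had 55.8 in BPP and 53.5 in CTR, VIM 12.3 and 22.1, and SRXN1 5.98 and 5.71. PLAUR (6.09) was in BPP only and GCLM (10.3) in CTR only. None of MMP1, MMP3, MMP9, PLAU, IL6, CXCL8, HBEGF, AREG or CCND1 had a peak at a gene end in any list.

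**Figure D4:**
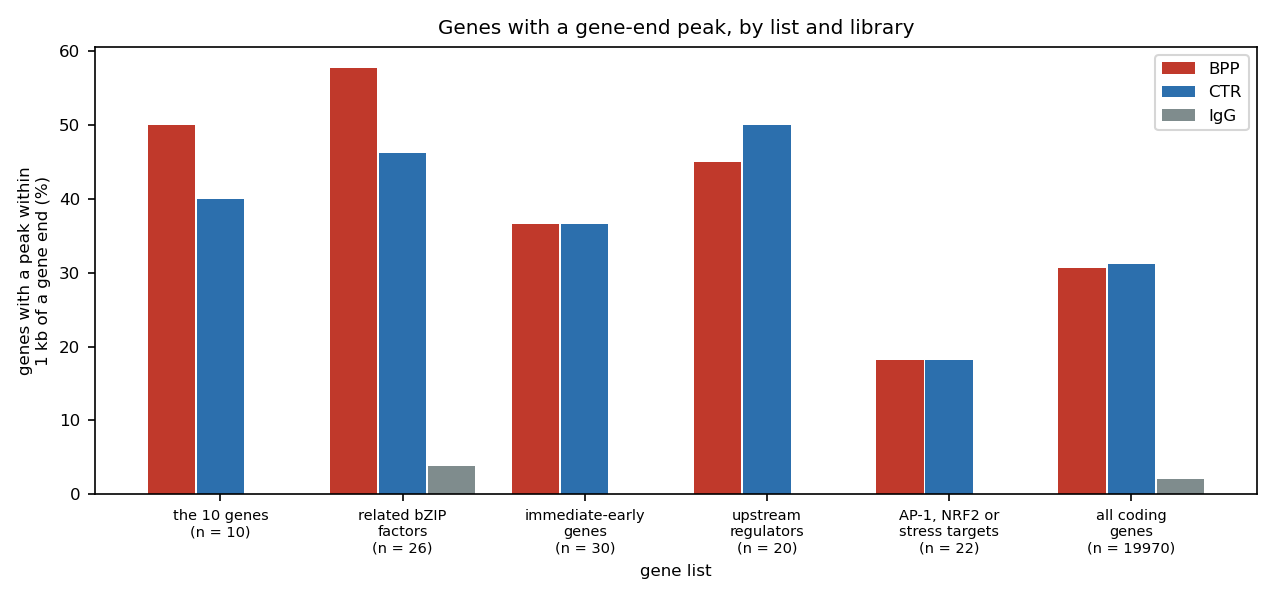
Share (%) of genes with a BPP, CTR or IgG peak within 1 kb of a gene end, for the 10 genes, 4 lists of related genes and all 19970 protein-coding genes. Of the 10 genes, 5 have a BPP peak, 4 a CTR peak and none an IgG peak, and the shares of all genes are 30.6%, 31.2% and 2.13%; the target list is the lowest in both H3K27ac libraries.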

How the data were processed

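CUT&Tag libraries of H3K27ac (BPP, CTR) and IgG from A2780 cells were grouped by sample title, with 1 library per group, numbered in accession order. Build GRCh38.p13 (hg38) and the tools fastp, Bowtie2 2.4.1 and deepTools 3.3.0 are named in the submitters' processing notes. Nothing here names the peak caller, its settings or any use of IgG as control. The authors deposited 1 peak list per library. The deposited fold is a ratio over an undescribed background, the deposited −log10 p and −log10 q come from the caller, and the authors' score was in each row the −log10 p times 10, without decimals. The deposited summit is an offset from the peak start. All −log10 p exceeded 5. Read depth cannot be given.

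Use of chromosomes 1 to 22 and X left out 28 BPP, 37 CTR and 14 IgG peaks. Gene spans are those of the RefSeq gene table, and starts and strand those of the RefSeq promoter table, both on GRCh38.p14; patch releases share chromosome coordinates. Coordinates count from 1, overlap from 1 bp. Signed peak positions are distances in bp from the first transcribed base; motif positions run from −1 before the start and from 1 at it. Background shares use all coding genes by the same rule. TGACNTCA, CCAAT and the windows around starts were added after the sequences and peaks were seen. The genes and lists were chosen with earlier results of these data known. All 10 genes are named, and of each further list those of highest −log10 q in BPP or CTR (up to 4 each), those in 1 list only (up to 4 per side, with BATF named beyond it after its value was seen) and some with no peak, likewise picked afterwards; a few genes that this rule covers are not reported here. Alternatives changed the windows, thresholds, numbers of peaks and overlap. The work ran in Python 3.11.15 (pandas 2.3.3, numpy 2.4.6, matplotlib 3.10.9, scipy 1.17.1), and overlaps were checked on simulated peaks against bedtools 2.31.1.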

Additional observations from a re-analysis of the deposited data

How the results depend on the processing

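Of 69 alternative values, 46 were counted as close to the value reported and 23 as moved. The limit was loose: 15 CTR peaks in the windows, against 22 reported, counted as close. Some of the 46 could not have moved. The IgG count of genes with a gene-end peak was 0, and settings that only take peaks away can give nothing else. Genes with a peak near a gene end numbered 5 in BPP and 4 in CTR; with windows of 2 kb BPP had 8 and CTR 4 (35.1% and 34.3% of all coding genes), because FOSB, FOSL2 and ATF3 entered in BPP, which made 4 in BPP only. With peaks of fold 5 or more, or the 5000 strongest peaks per list, there were 2 in BPP and 2 in CTR. At each of these settings 1 gene was in both, 1 in CTR only and 1 in BPP only. The BPP-only gene was then JUND in place of MAFF, although its count of 1 was counted as close. With −log10 q of 5 or more the BPP-only count was 0, since the MAFF peak left. For these settings the shares of all coding genes in both lists or in 1 list only are not given. The counts in both or in 1 list only are therefore not read as high or low. Peaks in the windows numbered 33 in BPP, 22 in CTR and 1 in IgG. They were 17, 13 and 1 with 10 kb either side, and 53, 34 and 3 with 50 kb. At fold 5 they were 7, 6 and 0, with 5000 peaks per list 11 and 6 in BPP and CTR, and 20 in BPP when the nearest coding gene end had to be the gene's own. At −log10 q of 5 IgG had 0. The cause of these moves was not tested beyond the peaks that each setting leaves out. The shares of overlapping peaks, all counted among the 46, ranged from 45.5% to 73.1% in BPP (60.6% reported). In CTR they ranged from 63.6% to 85.7% (81.8% reported). These values lay inside the counting intervals, which are wide, so that is a weak check. No whole-list shares are given here for these settings. At start sites of 8 genes the counts were 4 in BPP and 3 in CTR, a setting added after seeing the data. The lists differ in length, and depth is unknown, so presence in 1 list is a statement about the lists. No paired analysis was possible because each group has 1 library.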
